A study of Mus musculus with 6 samples.

Results

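The nuclear RNA exosome degrades RNA in the nucleus, and it relies on adaptor proteins to choose its substrates. The 10 genes described here encode such adaptors, and all 10 were found by symbol among the 14986 genes of the deposited table. Zcchc8, Rbm7 and Mtrex encode the subunits of the nuclear exosome targeting (NEXT) complex, Zfc3h1, Pabpn1, Rbm26, Rbm27 and Zc3h3 encode proteins of the poly(A) tail exosome targeting (PAXT) connection, and Zc3h18 and Srrt encode proteins that tie these adaptors to the cap-binding complex.

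The RNA was polyadenylated RNA of long-term haematopoietic stem cells (LT-HSCs), the self-renewing cells from which all blood lineages descend, which had been isolated from lineage-depleted mouse marrow by flow cytometry. The 6 libraries, of 1500 sorted cells each, were 3 labelled Zcchc8 KO and 3 labelled wild type (WT), and the question of the series is how transcript levels in these cells respond to loss of ZCCHC8. The labels give no allele, deleted exon, Cre driver, strain, age or sex and do not say whether libraries came from separate mice, so p-values measure the spread between these libraries, which may be technical. Values are FPKM, which scale the reads of a gene by its exon length and by the depth of the library.

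NEXT and PAXT share the helicase MTREX, also called MTR4, which unwinds RNA and feeds it to the exosome. In NEXT the scaffold ZCCHC8 joins the helicase to RBM7, an RNA-binding protein, and this complex is known for clearing short unprocessed transcripts such as promoter upstream transcripts. In PAXT the zinc finger protein ZFC3H1 joins the helicase to PABPN1, which coats poly(A) tails, and this connection is known for clearing longer polyadenylated nuclear RNA. SRRT, also called ARS2, and ZC3H18 connect capped RNA to both.

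Zinc fingers recur in several of these proteins, and a pair of their coding stretches is shown because it sets the scaffold that was targeted apart from an adaptor of the PAXT side. In the longest complete coding sequence of each gene (GENCODE M21, GRCm38), the CCHC arrangement of a zinc knuckle, with C, C, H and C spaced by 2, 4 and 4 residues, occurred in Zcchc8 alone among the 10. It lay in exon 8 (chr5:123708578-123708619, minus strand), residues 232 to 245 of 709. A CCCH arrangement, spaced by 7 or 8, 5 and 3 residues, occurred 1 time each in Rbm26 and Rbm27 and 3 times in Zc3h3, and this spacing was not met in Zfc3h1 or Zc3h18. The Rbm26 match runs over exons 6 and 7 (chr14:105151515-105152307, minus strand), residues 294 to 313 of 1009. Capitals mark the codons of the C and H residues, 5′ to 3′.
Zcchc8 zinc knuckle: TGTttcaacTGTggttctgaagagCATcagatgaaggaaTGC
Rbm26 CCCH finger: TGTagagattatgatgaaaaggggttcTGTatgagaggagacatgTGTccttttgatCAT

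Upstream of their start sites, Zcchc8 and Zfc3h1, the scaffolds of the 2 pathways, carry the letters ACTACANNTCCCA, part of the element that the zinc finger factor ZNF143 recognises in mammals. The letters were noticed in the Zcchc8 window, so its match was fixed in advance. They were then searched on both strands in the 250 bases before each RefSeq start site (GRCm38.p6). Of the 10 genes 8 had such a window, and that of Pabpn1 lies inside its gene as GENCODE M21 draws it. Zfc3h1 was the only other member with the letters. They were in 1.48% of all 27025 windows and in 3.45% of the 10643 windows of genes in the expression table. The Zfc3h1 match lies 145 to 133 bases before the start. The Zcchc8 window holds the letters 90 to 78 bases before the start and again on the opposite strand 21 to 9 bases before it, and this second match lies inside the first exon as GENCODE M21 draws it and is not printed. Capitals mark the match.
Zcchc8 (chr5:123721101-123721294, minus strand): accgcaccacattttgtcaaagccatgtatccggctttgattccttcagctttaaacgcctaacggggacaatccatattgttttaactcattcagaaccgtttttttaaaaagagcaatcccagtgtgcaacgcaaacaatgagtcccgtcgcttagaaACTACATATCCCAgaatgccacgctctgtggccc
Zfc3h1 (chr10:115384709-115384958, plus strand): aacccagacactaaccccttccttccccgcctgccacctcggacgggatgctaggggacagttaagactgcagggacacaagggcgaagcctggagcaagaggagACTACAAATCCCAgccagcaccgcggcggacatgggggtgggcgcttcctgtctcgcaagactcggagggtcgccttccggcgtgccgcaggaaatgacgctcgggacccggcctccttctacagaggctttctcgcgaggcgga

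The reads behind the FPKM values came to 18059320 to 25709659 per library. All 12 genes of a list of LT-HSC markers were in the table, with a summed level of 327.3 to 383.2 FPKM in KO and 425.4 to 483.1 FPKM in WT. Summed levels of markers of other blood cells also differed between KO and WT. Of the 8 genes of the eosinophil list 4 were in the table, and they summed to 160.9 to 204.8 FPKM in KO and 0.116 to 1.02 FPKM in WT, with all 4 passing the test described below as higher. Their WT levels alone would not have reached the mean of 1 FPKM which that test required. They entered it only through the KO libraries, so their passing is no independent support. All these lists were chosen with earlier results of these data known. Genes that passed in any of them are therefore no independent support either. Over all tested genes 0.228% passed (27 genes). The 8 erythroid genes summed to 436.0 to 465.0 FPKM in KO and 115.2 to 149.0 FPKM in WT (4 of 7 tested genes passed as higher), and the 8 B cell genes to 65.6 to 91.0 FPKM in KO and 804.0 to 918.1 FPKM in WT (1 of 5 passed, as lower). Summed levels were 3628 to 4046 FPKM in KO and 2715 to 2909 FPKM in WT for 8 neutrophil genes (1 of 8 passed as higher), 350.5 to 391.9 FPKM in KO and 197.7 to 238.9 FPKM in WT for 5 T and NK cell genes (1 of 5 passed as higher), and 266.8 to 299.5 FPKM in KO and 139.7 to 157.1 FPKM in WT for 5 genes of monocytes, macrophages and dendritic cells (2 of 5 passed as higher). They were 349.3 to 389.0 FPKM in KO and 214.3 to 312.4 FPKM in WT for 6 megakaryocyte genes and 10.58 to 12.6 FPKM in KO and 7.96 to 10.55 FPKM in WT for 4 endothelial and stromal genes, and no gene of these lists or of the LT-HSC list passed. No listed gene that was in the table was at 0 in every library of a group, and listed genes absent from the table have no value here. A summed level can rest on the most abundant genes of its list, and the direction of single genes is not given here. The part of other cells in the values below was not tested, and in such bulk samples fewer cells of a type and less RNA per cell cannot be told apart.

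None of the 9 adaptor genes tested passed the test for a difference between KO and WT libraries. The test was limma on log2(FPKM + 1), a scale that shrinks the changes of weakly expressed genes, with Benjamini-Hochberg adjustment over the 11837 genes whose mean reached 1 FPKM. It took in 9 of the 10, Zc3h3 being below the filter. No member had an adjusted p under 0.05, where 0.228% of all tested genes did (27 genes). At an unadjusted p under 0.05 there was 1 member, Pabpn1, lower in KO, where 9.20% of tested genes passed in either direction and 4.33% as lower. Pabpn1 was also the 1 tested member whose groups did not overlap, against 15.2% of tested genes in either direction and 6.99% as lower. The median log2 change was 0.01 over the 9 members and 0.00 over all tested genes. With any 1 library left out and under 9 other settings, limma-voom on recovered reads among them, the number of members that passed was again 0.

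**Figure D1:**
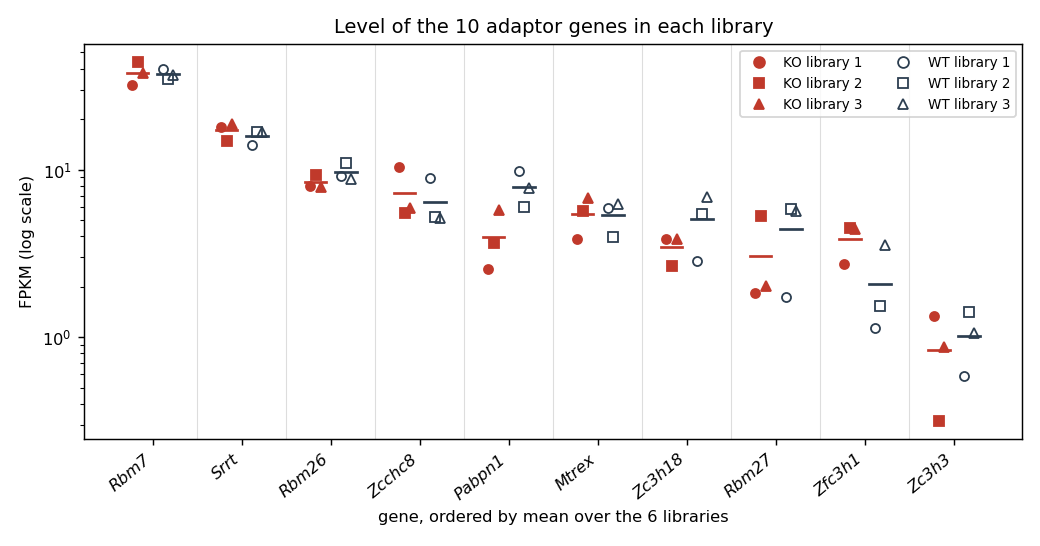
FPKM (log axis) of each adaptor gene in the 3 KO libraries (filled, left) and the 3 WT libraries (open, right), with horizontal bars at the group means and marker shape giving the library number. Rbm7 is the highest gene in every library, and Pabpn1 is the tested gene whose groups do not overlap, at 2.55 to 5.73 FPKM in KO and 6.02 to 9.82 FPKM in WT.

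Of the NEXT subunits, Zcchc8, the targeted scaffold (chr5:123698294-123721100, GRCm38, minus strand, ENSMUSG00000029427.11), was not lower in the libraries labelled KO. It stood at 10.4, 5.54 and 5.92 FPKM in KO and at 8.93, 5.24 and 5.16 FPKM in WT. Library 1 was the high one in both groups and the groups overlapped. These levels rest on 552 to 1404 reads in KO and 503 to 847 reads in WT, and a value summed over all exons cannot show the loss of single exons or of protein. The log2 change was 0.15 ± 0.33 (SE), with a 95% interval of -0.60 to 0.89, or 0.661-fold to 1.85-fold of FPKM + 1, which understates the fold of FPKM itself. The adjusted p was 0.94 by limma, and p was 0.5 by a two-sided exact permutation over libraries, a test that cannot go below 0.1 with 3 against 3. Without KO library 1 the log2 change was -0.11 (adjusted p = 0.95).

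Rbm7, the RNA-binding subunit (chr9:48488701-48495299, minus strand), was the most abundant of the 10. It measured 32.1, 43.9 and 37.6 FPKM in KO and 39.7, 34.7 and 36.9 FPKM in WT, from 3138 to 4109 reads a library. The WT values lay within the range of the KO values. Its log2 change of 0.02 ± 0.16 (SE, adjusted p = 0.99 by limma) had the narrowest interval of the members, -0.35 to 0.39, and lay at -0.015 after rescaling to TPM or to equal quantiles. Mtrex, the helicase (chr13:112867418-112927398, minus strand), measured 3.85, 5.67 and 6.76 FPKM in KO and 5.88, 3.93 and 6.26 FPKM in WT, with the lowest and the next lowest value in different groups. Its log2 change was 0.01 ± 0.31 (SE), -0.02 under TPM, with an interval of -0.69 to 0.70 and an adjusted p of 0.997 by limma. Of the Mtrex exon bases 7.06% overlap Plpp1 on the opposite strand, and Plpp1 was listed at no more than 2.47 FPKM in any library.

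Within each library, Rbm7 exceeded its scaffold in FPKM. The ratio of Rbm7 to Zcchc8 was 3.08, 7.91 and 6.35 in KO and 4.45, 6.63 and 7.15 in WT, and the ratio of Mtrex to Zcchc8 was 0.370, 1.02 and 1.14 in KO and 0.658, 0.751 and 1.21 in WT. Both ratios were lowest in library 1 of each group, the library with the most Zcchc8, and the groups overlapped in both.

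Of the PAXT genes, Zfc3h1 and Pabpn1 had the largest differences by value, in opposite directions, and neither passed the test. Pabpn1, which binds poly(A) tails (chr14:54892500-54898169, plus strand, ENSMUSG00000022194.15), stood at 2.55, 3.65 and 5.73 FPKM in KO and at 9.82, 6.02 and 7.74 FPKM in WT. Every KO library was below every WT library, with KO library 3 and WT library 2 close to each other. The reads behind these values numbered 199, 210 and 362 in KO and 538, 334 and 444 in WT, where counting alone gives an average error of 6.42% in KO and 4.84% in WT. Mean FPKM in KO was 0.506 of that in WT, 3.98 ± 1.61 against 7.86 ± 1.90 (SD, n = 3 each). The log2 change was -0.86 ± 0.33 (SE, 95% interval -1.60 to -0.11), with an unadjusted p of 0.0284 and an adjusted p of 0.48 by limma, and the exact permutation test gave p = 0.1, the smallest possible. The unadjusted p of Pabpn1 was 0.0959, 0.0599 and 0.0116 without KO library 1, 2 or 3, and 0.0989, 0.0267 and 0.0627 without WT library 1, 2 or 3. The exons of Pabpn1 share 651 of 3035 bases (21.4%) with the protein-coding annotation Gm20521 on the same strand, so reads there may be assigned to either or to neither.

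Zfc3h1, the scaffold of PAXT (chr10:115384959-115432772, plus strand, ENSMUSG00000034163.10), measured 2.74, 4.47 and 4.41 FPKM in KO and 1.14, 1.54 and 3.55 FPKM in WT. WT library 3 stood above KO library 1, so the groups overlapped. WT libraries 1 and 2 rested on 161 and 221 reads and the other libraries on 527 to 721. The log2 change was 0.72 ± 0.38 (SE, 95% interval -0.15 to 1.59) with an adjusted p of 0.61 by limma. With 1 library left out, the log2 change of Zfc3h1 ranged from 0.50 (without WT library 1) to 1.04 (without WT library 3). The unadjusted limma p was 0.26 and 0.0261 in these fits, and the adjusted p was 0.78 and 0.53.

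**Figure D2:**
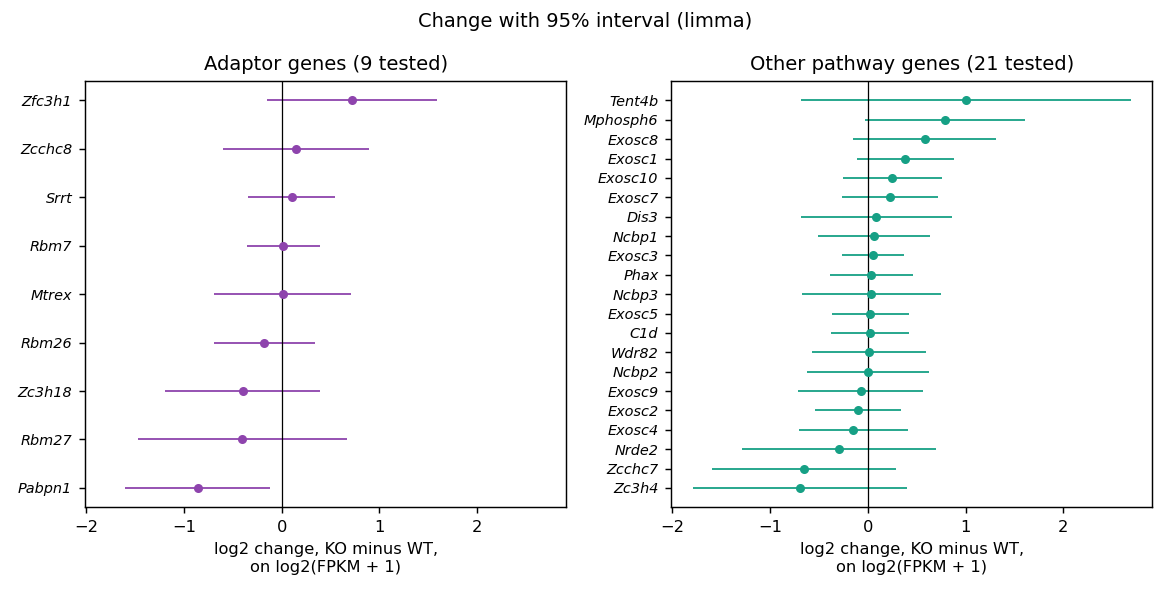
Log2 change, KO minus WT, on the log2(FPKM + 1) scale with its 95% interval from limma (points and bars) for the 9 tested adaptor genes (left) and the 21 other tested genes of the nuclear exosome pathway (right). The interval of Pabpn1, -1.60 to -0.11, is the 1 of the 9 that leaves out 0, and its adjusted p is 0.48. Rbm7 and Mtrex lie at 0.02 and 0.01 and are below 0 under TPM.

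The paralogues Rbm26 and Rbm27, whose proteins bind RNA and join the PAXT core, differed in how much they varied between libraries. Rbm26 (chr14:105106751-105177327, minus strand) measured 8.004, 9.33 and 7.84 FPKM in KO and 9.19, 10.9 and 8.82 FPKM in WT. Its values stayed within a narrow range, with a residual SD of 0.14 on the log2 scale, and the groups overlapped. Its log2 change was -0.18 ± 0.23 (SE, 95% interval -0.70 to 0.34, adjusted p = 0.86 by limma). Rbm27 (chromosome 18, 42275353 to 42341542, plus strand) measured 1.83, 5.26 and 2.02 FPKM in KO and 1.73, 5.84 and 5.64 FPKM in WT. It was at 1.73 to 2.02 FPKM in KO libraries 1 and 3 and WT library 1 and at 5.26 to 5.84 FPKM in the others, from 208 to 313 reads against 663 to 710, and the residual SD was 0.70. Its log2 change was -0.40 ± 0.47 (SE), the interval from -1.47 to 0.66 was the widest of the members, and the adjusted p was 0.84. The ratio of Rbm26 to Rbm27 was 4.37, 1.77 and 3.87 in KO and 5.30, 1.87 and 1.57 in WT.

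Zc3h3, a CCCH protein of the same connection (chr15:75754430-75841915, minus strand), was the lowest of the 10. It was listed at 1.33, 0.316 and 0.876 FPKM in KO and 0.584, 1.42 and 1.05 FPKM in WT, from 21 to 120 reads. The lowest value and the second highest were both in KO. Its mean of 0.930 FPKM over the 6 libraries missed the filter, and its difference of -0.15 on the log2(FPKM + 1) scale had an exact two-sided permutation p of 0.6.

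Of the cap-linked genes, Srrt, which encodes the cap-associated ARS2 protein (chr5:137295704-137307674, minus strand), measured 17.9, 14.8 and 18.7 FPKM in KO and 14.1, 16.8 and 16.7 FPKM in WT. The groups overlapped, and the log2 change was 0.10 ± 0.20 (SE, 95% interval -0.34 to 0.55, adjusted p = 0.91 by limma). Zc3h18, the bridge from the cap to NEXT and PAXT (chr8:122376609-122417360, plus strand), measured 3.85, 2.65 and 3.85 FPKM in KO and 2.86, 5.44 and 6.91 FPKM in WT. WT libraries 2 and 3 were above all KO libraries while WT library 1 was within them. Its log2 change was -0.40 ± 0.35 (SE, 95% interval -1.19 to 0.39, adjusted p = 0.77 by limma). It was -0.69 without WT library 1 (adjusted p = 0.64) and -0.18 without WT library 3 (adjusted p = 0.94). The ratio of Srrt to Zc3h18 was 4.66, 5.58 and 4.86 in KO and 4.92, 3.09 and 2.42 in WT.

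By mean FPKM over the 6 libraries, a level per length, the order was Rbm7 (37.5), Srrt (16.5), Rbm26 (9.02), Zcchc8 (6.86), Pabpn1 (5.92), Mtrex (5.39), Zc3h18 (4.26), Rbm27 (3.72), Zfc3h1 (2.97) and Zc3h3 (0.930). Rbm7 exceeded Srrt and Srrt exceeded Rbm26 in 6 of 6 libraries, and Zfc3h1 exceeded Zc3h3 in 6 of 6. Rbm26 was above Zcchc8 in 5 of 6. The neighbours in between changed places from library to library. Zcchc8 was above Pabpn1 in 3 of 6, Pabpn1 above Mtrex in 3 of 6, and Mtrex above Zc3h18, Zc3h18 above Rbm27 and Rbm27 above Zfc3h1 in 4 of 6 each. Rbm7 was above 87.8% of the genes in the table and Zc3h3 above 20.1%.

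**Figure D3:**
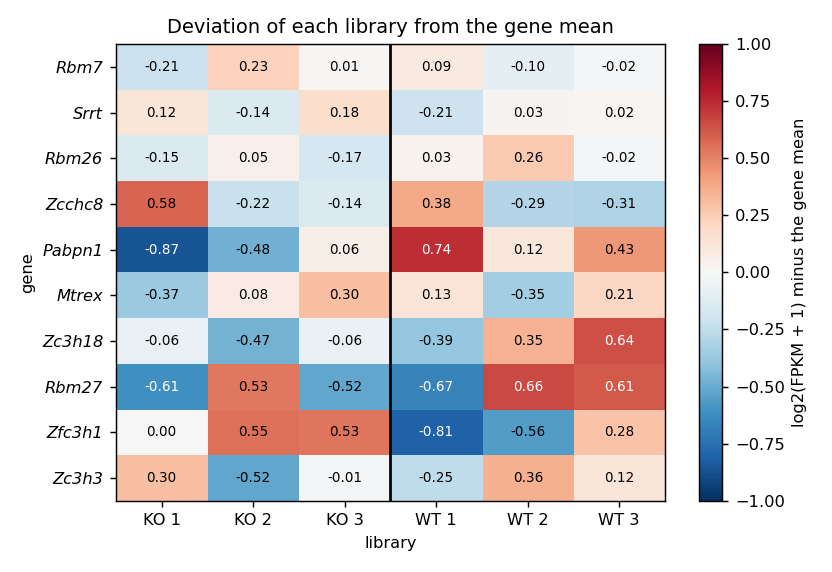
Deviation of log2(FPKM + 1) in each library (columns, KO left of the line, WT right) from the mean of that gene over the 6 libraries (rows, in order of level). Rows of the 3 most abundant genes stay within 0.26 of their mean, while Pabpn1, Zfc3h1 and Rbm27 reach -0.87, -0.81 and -0.67.

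Across libraries the members did not vary as one group. Library 1 of both groups had the highest Zcchc8, 0.58 above the gene's mean in KO and 0.38 above it in WT on the log2 scale, and the lowest Rbm27, 0.61 and 0.67 below the mean. Zfc3h1 was lowest in WT library 1 and Pabpn1 was highest there. The labels do not say whether libraries with the same number share an origin. Over all tested genes, the deviations of same-number libraries had correlations of 0.02, 0.01 and 0.00. With 3 libraries a group these cannot settle whether such libraries share a batch. The spread between libraries of a group was 3.17 to 12.3 times the counting error of the reads in each of the 10 genes and both groups. The median residual SD was 0.39 for the 9 tested members, 0.43 for tested genes with a mean of 2 to 10 FPKM and 0.34 for all tested genes.

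As NEXT and PAXT share their helicase, ratios between members within a library were also set side by side, with no test. Of the 45 pairs among the 10 genes, 8 (17.8%) had ratios that did not overlap between KO and WT. All 8 held Pabpn1 or Zfc3h1. Ratios did not overlap in 14.2% of all pairs of the 11230 tested genes above 0 in every library. The 45 pairs include those with Zc3h3, which was not tested, so the shares cover unlike sets. None of the 8 held Zc3h3, so the share among tested members alone would be above 17.8%. Pairs that share a gene are not independent, and no result about the members is read from this share. The ratio of Pabpn1 to Zfc3h1 was 0.932, 0.817 and 1.30 in KO and 8.64, 3.91 and 2.18 in WT. The ratio of Mtrex to Zfc3h1 was 1.41, 1.27 and 1.53 in KO and 5.18, 2.56 and 1.76 in WT. The ratio of the scaffolds, Zcchc8 to Zfc3h1, was 3.80, 1.24 and 1.34 in KO and 7.86, 3.40 and 1.45 in WT, and here the groups overlapped. These ratios rest on the same values as the single genes and share their spread.

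Other genes of the nuclear exosome pathway were taken from a list of 23, of which 22 were in the table and 21 tested. The list holds the exosome core and its nucleases, the cofactors C1d and Mphosph6, Zcchc7 and the poly(A) polymerase genes Tent4a and Tent4b, the cap-binding genes, Phax, Zc3h4, Wdr82 and Nrde2. None passed the adjusted or the unadjusted threshold of 0.05 in either direction by limma, none passed the adjusted one by limma-voom, and 15 lay above 0 and 6 below by value, where 5946 of all tested genes lay above and 5891 below. Under TPM 11 of the list lay above 0 and 10 below. The median log2 change was 0.03, against 0.00 over all tested genes, and was 0.0043 under TPM. The smallest unadjusted p was that of Mphosph6, an exosome cofactor, at 12.8 ± 1.62 FPKM in KO and 7.77 ± 4.92 FPKM in WT (SD, n = 3 each), with an adjusted p of 0.56. Exosc8, a subunit of the exosome ring, measured 5.996 ± 1.25 FPKM in KO and 3.75 ± 1.25 FPKM in WT (adjusted p = 0.62 by limma). It was the 1 gene of the 21 tested whose groups did not overlap, against 15.2% of all tested genes in either direction. Exosc1, of the cap of the exosome, measured 17.9 ± 1.91 FPKM in KO and 13.6 ± 2.91 FPKM in WT (adjusted p = 0.63 by limma).

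The genes whose library pattern was most like that of Zcchc8 were Sec24c, a COPII coat gene, Rnf139, a ubiquitin ligase gene, and Pip4k2c, a phosphoinositide kinase gene. They were the nearest of 6472 named genes averaging 5 FPKM or more, at a root mean square difference of 0.10, 0.10 and 0.12 between deviations on the log2(FPKM + 1) scale over 6 libraries, where the deviation of Zcchc8 itself had a root mean square of 0.35. Sec24c measured 12.7, 6.50 and 8.84 FPKM in KO and 10.9, 6.59 and 6.85 FPKM in WT, high in library 1 of each group as Zcchc8 was. This likeness is the rule by which the genes were picked. A search of 6472 genes over 6 values can give close matches without any link, and a link was not tested.

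**Figure D4:**
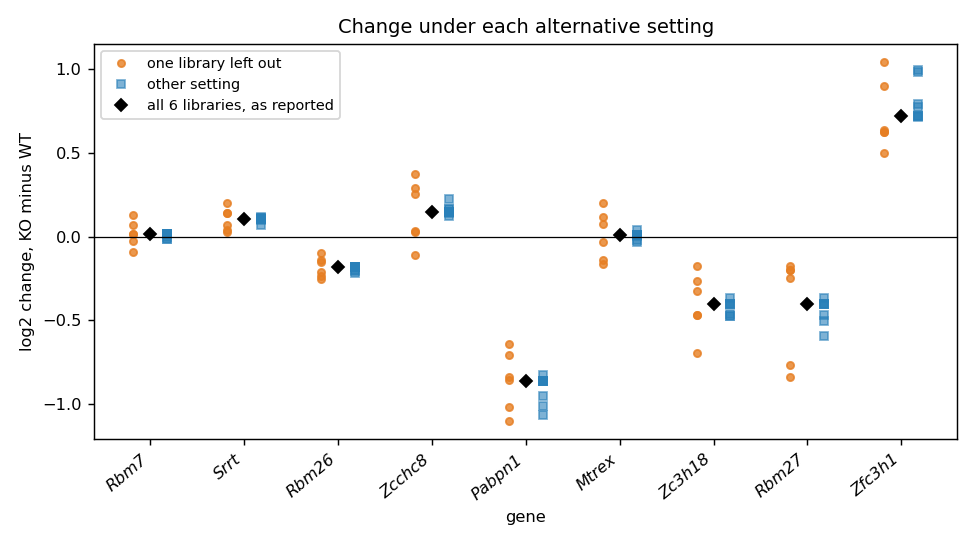
Log2 change, KO minus WT, of the 9 tested adaptor genes with all 6 libraries (diamonds), with 1 library left out (circles, left) and under the other settings (squares, right). Pabpn1 stays between -1.10 and -0.64 and Zfc3h1 between 0.50 and 1.04, while Zcchc8, Rbm7 and Mtrex lie on both sides of 0.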

How the data were processed

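The authors deposited 1 table of FPKM with a row for each gene symbol. Per the submitters' processing notes the tools were fastp, Bowtie2 and featureCounts with build mm10, without versions. Strand use and the treatment of reads shared by several genes were not given in the sources used here.

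Exon lengths and coordinates came from GENCODE M21 (GRCm38), matched by unique symbol for 14671 genes (97.9%). FPKM times exon length came in whole multiples of 1 step per library (98.0% of values below 100 reads whole within 0.05), which gave the reads behind each value. For an exon length of 2 kb, a single read corresponds to 0.0194 to 0.0277 FPKM. Reads carry no molecular identifiers, so counting errors cover counting only.

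KO was compared with WT by lmFit and trended eBayes of limma 3.58.1 under R 4.3.3, two-sided, on log2(FPKM + 1), with genes of mean FPKM at least 1 tested, a threshold of 0.05 on the adjusted p, and no covariates. The procedure was run on simulated data with independent noise for each gene and no library effects, where no call had the wrong sign. How many real changes of the members' size the test would miss is not given here. Exact permutation tests over the 6 libraries were two-sided. Alternatives changed the pseudocount, filter, scaling, variance trend, replicate block, test and libraries. Sequences came from GENCODE and RefSeq (GRCm38.p6), read with Biopython 1.88, and figures were drawn with matplotlib 3.10.9. Named were all members, the 3 pathway genes of smallest p and the 3 genes nearest to Zcchc8 in pattern. The members and lists were chosen with earlier results of these data known.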

Additional observations from a re-analysis of the deposited data

How the results depend on the processing

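The number of adaptor genes that passed was 0 under all 15 alternatives, and so was that of the pathway list. Over all tested genes, 27 passed with the full data. That number was 8 without the variance trend, 8 with limma-voom on recovered reads, and 11 to 19 with 1 library left out. Same-number deviations had correlations of 0.02, 0.01 and 0.00, which do not settle whether the libraries were paired. With the replicate block 11 genes passed. The log2 change of Rbm7 was -0.0153 under TPM, -0.0151 under quantile scaling and -0.00349 by voom, against 0.02, and -0.0911 to 0.13 with 1 library left out. That of Mtrex was -0.0216 under TPM and -0.0302 by voom, against 0.01, and -0.16 to 0.20 with 1 library left out. That of Zcchc8 ranged from -0.11 to 0.37 with 1 library left out, and was below 0 without KO library 1. The cause of these sign changes was not tested. Zfc3h1 and Srrt stayed above 0, and Pabpn1, Rbm26, Rbm27 and Zc3h18 below 0, in each alternative that gave a value. The filter of 5 FPKM left out Zfc3h1, Rbm27 and Zc3h18, and Zc3h3 was tested without a filter alone (adjusted p = 0.92). With 3 libraries a group, the 95% intervals reached 0.37 to 1.07 on either side of the log2 change.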
